A study of Homo sapiens with 6 samples.

Results

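The neuronal cytoskeleton and axonal transport genes described here are 34 genes that encode neurofilaments and related intermediate filaments, stathmins, doublecortins, structural microtubule-associated proteins (MAPs), neuronal tubulins, collapsin response mediator proteins (CRMPs) with GAP43, and kinesin motors. They were listed by name from what their products do, with earlier results of these data known, and all 34 were measured among the 19752 genes tested. Total RNA of SY5Y-TR1 cells and of parental SH-SY5Y cells was measured on Affymetrix U133 Plus 2.0 arrays, which carry short probes for most human genes, with 3 arrays in each line. SY5Y-TR1 is an ALK inhibitor-resistant subclone that was expanded after SH-SY5Y cells had been exposed to rising doses of TAE684, an inhibitor of anaplastic lymphoma kinase (ALK), and according to the labels it was kept in 1 μM TAE684. SH-SY5Y, a human neuroblastoma (NB) line, was kept in the same RPMI-1640 medium without the compound, and both lines carry the ALKF1174L mutation. The resistant line is thus represented by 1 subclone, and the effects of selection and of the compound in its medium cannot be told apart. The labels call the arrays of a line biological replicates, but nothing describes the cultures, so the p-values measure only the spread between these samples.

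Neurons hold their long processes open with microtubules, which are polymers of alpha- and beta-tubulin, and with neurofilaments, which set the width of axons. Structural MAPs and doublecortins bind and stabilize microtubules, stathmins bind free tubulin and destabilize them, and CRMPs couple guidance signals to tubulin in the growth cone. Kinesins use the microtubules as tracks along which they carry vesicles and organelles away from the cell body. NB arises from the sympathetic lineage, and lines such as SH-SY5Y express many of these genes before any differentiation.

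Of the 34 genes, 14 were lower in SY5Y-TR1 than in SH-SY5Y (41.2%), 1 was higher and 19 were not called, where over all genes 5.99% were lower and 5.36% higher. Of the 19, 14 had an adjusted p under 0.05 but stayed under 2-fold, 9 of them lower and 5 higher. KIF21B, among the 5, lay at the background level described below and carries no fold. With the called genes included, 23 of the 34 were lower and 6 higher at that adjusted p, against 24.4% and 28.5% of all genes. Decreases of more than 10-fold were found for the neurofilament gene NEFM (at least 26.9-fold), the tubulin gene TUBB2B (26.2-fold), the stathmin gene STMN2 (21.1-fold) and the kinesin gene KIF21A (10.8-fold). By contrast the tubulin genes TUBB3, TUBA1A and TUBB2A each differed by less than 1.5-fold, and the microtubule-associated protein gene MAP1A was 2.5-fold higher. The arrays of the lines did not overlap for any of the 15 called genes, which a call of 2-fold at the small spread between arrays nearly requires. Over all genes, 27.2% did not overlap with SY5Y-TR1 lower and 32.6% with SY5Y-TR1 higher. The median log2 fold change of the 34 genes was -0.58, against 0.04 over all genes. A gene was called lower or higher where limma gave an adjusted p under 0.05 (Benjamini-Hochberg, over all 19752 genes) and the lines differed 2-fold or more. All values are log2 signals made by the authors with robust multi-array average (RMA), and each gene is represented by its brightest probe set, that with the highest mean over the 6 arrays. Signal levels are compared between lines for the same probe set only. In bulk RNA, fewer cells that express a gene and less RNA per cell cannot be told apart.

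No detection calls were among the values used here, so background was judged from 38 genes that belong to unrelated tissues, 90% of which had a mean log2 signal under 6.15. If a line did not exceed 6.15 on any array, the fold is a lower bound ("at least") computed with 6.15 in place of that line's mean, and a log2 difference printed beside it is that of the signals, not an exact fold. Of the 34 genes, 26 were above the level on every array. STMN4, TUBB4A and KIF21B were at or under it on all 6 arrays, NEFM, DCX and DPYSL5 only on the 3 SY5Y-TR1 arrays, and PRPH and KIF5A on some arrays of 1 line. Array medians lay between 5.56 and 5.59, which the quantile normalization before deposit makes nearly equal whatever the quality of an array. Pearson's r across genes was 0.998 to 0.999 within a line and 0.948 to 0.950 between lines, and the median SD between arrays was 0.07 in each line. No measure of array or RNA quality was among the values used here. The precision of each value is limited by the number of arrays. Noradrenergic neuroblast markers were detected in SH-SY5Y, where 9 of 10 were above the background level, and 7 of the 10 were lower in SY5Y-TR1, including the enzyme gene DDC (at least 35.8-fold) and the granin genes CHGB (at least 15.9-fold) and CHGA (12.9-fold). Of 14 mesenchymal markers 8 were higher, led by PRRX1 (at least 128-fold), COL6A3 (52.3-fold) and COL1A1 (13.2-fold), and 3 were lower, the matrix genes DCN (at least 5.60-fold) and LUM (4.04-fold) and the receptor gene PDGFRA (4.44-fold). The values for LUM and DCN were -0.73 and -1.71 on the log2 scale without probe sets marked for shared sequence, and that for PDGFRA was -0.67 with its 4 probe sets averaged, so that LUM and PDGFRA were then not called. The mean log2 level per array ran from 7.3 to 7.5 in SY5Y-TR1 and from 9.85 to 9.89 in SH-SY5Y over the neuroblast list, and from 10.4 to 10.51 in SY5Y-TR1 and from 9.11 to 9.16 in SH-SY5Y over the mesenchymal list. These markers differed between the same arrays as the cytoskeleton genes, and their part in the cytoskeleton values was not tested. None of 9 Schwann and glial, 6 blood cell and 7 endothelial markers was called, and all 22 of them lay at or under the background level in SH-SY5Y, as 19 did in SY5Y-TR1. The mean log2 level of these lists per array lay between 4.46 and 4.89 in SY5Y-TR1 and between 4.45 and 4.84 in SH-SY5Y.

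Because TUBB2B and TUBB2A, neighbouring beta-tubulin genes on chromosome 6 whose starts lie 70109 bases apart, differed between the lines in opposite directions, the 250 bases before each of their starts are shown, together with those of GAP43 and KIF21A, which were both lower. RefSeq (GRCh38.p14) gives the windows as chr6:3227654-3227903 on the minus strand for TUBB2B, chr6:3157545-3157794 on the minus strand for TUBB2A, chr3:115623260-115623509 on the plus strand for GAP43 and chr12:39443121-39443370 on the minus strand for KIF21A. Each is printed 5′ to 3′ with its last base next to the start, and capitals mark matches on either strand to the following motifs. The letters searched were TATAAA for the box bound by the TATA-binding protein, CCAAT for the site of nuclear factor Y, GGGCGG for the GC box bound by specificity proteins, TGACGTCA for the cyclic AMP response element, TAATTA for the homeodomain core and CAGGTG for an E-box.
TUBB2B: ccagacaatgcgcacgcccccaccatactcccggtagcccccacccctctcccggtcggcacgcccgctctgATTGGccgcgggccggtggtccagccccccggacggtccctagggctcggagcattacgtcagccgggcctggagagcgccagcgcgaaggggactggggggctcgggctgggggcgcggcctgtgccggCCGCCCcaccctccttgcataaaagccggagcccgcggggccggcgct
TUBB2A: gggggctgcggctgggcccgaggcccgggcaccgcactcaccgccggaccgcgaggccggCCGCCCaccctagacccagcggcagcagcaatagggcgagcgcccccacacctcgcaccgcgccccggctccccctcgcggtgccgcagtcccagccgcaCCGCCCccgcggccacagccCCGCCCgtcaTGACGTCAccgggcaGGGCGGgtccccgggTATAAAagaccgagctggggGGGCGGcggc
GAP43: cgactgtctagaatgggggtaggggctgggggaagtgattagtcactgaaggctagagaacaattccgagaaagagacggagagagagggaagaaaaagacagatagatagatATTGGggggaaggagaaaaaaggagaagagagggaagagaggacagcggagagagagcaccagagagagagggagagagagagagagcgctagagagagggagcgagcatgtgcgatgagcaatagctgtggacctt
KIF21A: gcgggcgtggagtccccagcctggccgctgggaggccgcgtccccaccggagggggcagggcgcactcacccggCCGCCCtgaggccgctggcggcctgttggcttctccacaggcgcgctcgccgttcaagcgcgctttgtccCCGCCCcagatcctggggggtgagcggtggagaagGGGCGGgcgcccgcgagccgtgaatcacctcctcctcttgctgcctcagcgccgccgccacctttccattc
The TUBB2A window held 5 GC boxes, a cyclic AMP response element at -60 and a TATA box at -30 relative to the start, whereas the TUBB2B window held 1 GC box and a reversed CCAAT box and no exact match to TATAAA. Only exact matches were searched. The TUBB2B window also holds cataaa and ttacgtca, near matches to TATAAA and TGACGTCA, which were not counted. Aligned end to end, these windows were identical at 149 of 283 alignment columns (52.7%). TATAAA occurs in 10.7% of all 35116 promoter windows of this length in the table, CCAAT in 32.0%, GGGCGG in 42.6%, TGACGTCA in 1.65%, TAATTA in 4.35% and CAGGTG in 17.5%. The table held windows for 24 of the 34 genes. A CCAAT match was present for 6 of the 9 genes called lower that had a window (DCX, DPYSL5, GAP43, KIF5C, MAP2 and TUBB2B) and for 4 of the other 15, and a GGGCGG match for 6 of 9 and 13 of 15. TAATTA was found in windows of DCX and MAP2, both lower, and in none of the other 15 genes, and CAGGTG in 1 of 9 and 2 of 15. A TATAAA match was present for 1 of 9 (DCX) and 3 of 15, and TGACGTCA for 1 of 9 (KIF5C) and 2 of 15 (KIF1A and TUBB2A). Genes with several starts had several windows, the counts are small, and no binding was measured.

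Intermediate filament genes were uniform in direction, since all 6 had lower signals on every SY5Y-TR1 array than on any SH-SY5Y array, a pattern shown by 27.2% of all genes, and 3 of them passed the 2-fold limit. NEFM, which encodes the medium neurofilament subunit, read 5.22, 5.21 and 5.33 in SY5Y-TR1 against 10.89, 10.95 and 10.84 in SH-SY5Y. Its signal was at the background level on the SY5Y-TR1 arrays, so that the gene was at least 26.9-fold lower (log2 difference -5.64 with a standard error of 0.05, limma adjusted p = 4.01e-09). The other NEFM probe set was under background on all 6 arrays and carried no fold. NEFL, which encodes the light subunit on which neurofilaments assemble, read 7.45, 7.26 and 7.53 in SY5Y-TR1 against 10.09, 10.12 and 10.10 in SH-SY5Y. It was 6.46-fold lower (log2 fold change -2.69 with a standard error of 0.07, limma adjusted p = 2.02e-07). All 3 NEFL probe sets were called lower, the others 17.3-fold and, with SY5Y-TR1 under background, at least 3.83-fold. NEFH, the heavy subunit gene, read 8.45, 8.49 and 8.53 in SY5Y-TR1 against 9.71, 9.67 and 9.72 in SH-SY5Y, a 2.32-fold decrease (limma adjusted p = 5.98e-07) shared by its other probe set (-1.05). All 3 neurofilament subunit genes were thus lower with no overlap between the lines, and the remaining genes of the family stayed under 2-fold. INA, which encodes alpha-internexin, read 7.80, 7.82 and 7.81 in SY5Y-TR1 against 8.30, 8.33 and 8.34 in SH-SY5Y (log2 fold change -0.51, limma adjusted p = 2.68e-05). NES, which encodes the progenitor filament nestin, read 9.94, 10.41 and 10.32 in SY5Y-TR1 against 10.68, 10.88 and 10.70 in SH-SY5Y (log2 fold change -0.53, limma adjusted p = 0.0102). PRPH, the peripherin of peripheral neurons, was close to background on all arrays (log2 fold change -0.47, limma adjusted p = 0.00885).

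Among 14 other measured intermediate filament genes, 5 were higher and 1 lower in SY5Y-TR1, with a median log2 fold change of 0.25, and 2 were higher without probe sets marked for shared sequence, such as the only probe sets of SYNC and KRT8. SYNC, a binding partner of desmin in muscle, was 4.06-fold higher (log2 fold change 2.02), KRT8, a keratin of simple epithelium, 3.70-fold (1.89), and BFSP1, a lens filament gene, at least 2.43-fold. LMNB1, which encodes the nuclear lamin B1, was 3.87-fold lower (-1.95). VIM, the vimentin gene of mesenchymal cells, singled out here after its values were seen, was 1.21-fold higher by its brightest probe set and not called, while the other of its 2 probe sets was called higher.

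Stathmin genes whose brightest probe set was above the background level were all lower. The brightest probe set of STMN4 lay at that level and could not show a fall. Among the doublecortins DCX fell far, and the others did not by their brightest probe sets. STMN2, whose product keeps microtubules dynamic in growth cones, read 8.33, 8.19 and 8.28 in SY5Y-TR1 against 12.68, 12.65 and 12.68 in SH-SY5Y. It was 21.1-fold lower (log2 fold change -4.40 with a standard error of 0.05, limma adjusted p = 8.07e-09), with both probe sets called, and remained above the background level in SY5Y-TR1. STMN3, a neuronal stathmin, read 8.21, 8.15 and 8.30 in SY5Y-TR1 against 11.09, 11.06 and 11.11 in SH-SY5Y, a 7.29-fold decrease (limma adjusted p = 4.00e-08). Its second probe set was under background on all 6 arrays. STMN4, another neuronal stathmin, had a brightest probe set at the background level on all 6 arrays (log2 fold change 0.09). The other STMN4 probe set read 4.81, 3.96 and 4.42 in SY5Y-TR1 against 6.43, 6.57 and 6.61 in SH-SY5Y, just above that level in the parental line only, and was at least 1.31-fold lower (log2 difference -2.14, adjusted p = 7.45e-05 from limma over all probe sets). STMN1, the broadly expressed stathmin, was 2.88-fold lower as well, through 1 of 2 probe sets (log2 fold change -1.53).

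DCX, the doublecortin of migrating and newly formed neurons, read 3.73, 3.85 and 4.29 in SY5Y-TR1 against 7.89, 8.08 and 8.07 in SH-SY5Y. The resistant arrays thus lay well under the background level, and the gene was at least 3.65-fold lower (log2 difference -4.06 with a standard error of 0.14, limma adjusted p = 6.40e-07). Its other probe set was at least 5.11-fold lower, and both are marked for shared sequence. DCLK1, a kinase that carries the same microtubule-binding domains, did not follow DCX, at 10.22, 10.28 and 10.30 in SY5Y-TR1 against 10.25, 10.22 and 10.32 in SH-SY5Y (log2 fold change 0.00, standard error 0.05). The lines overlapped for this probe set, whereas 3 dimmer DCLK1 probe sets had log2 differences of -0.40, -0.90 and -0.65, none of them called. That at -0.90 had SY5Y-TR1 under background (at least 1.34-fold lower). The probe set at -0.65 was under background on all 6 arrays and carried no fold. DCLK2, the close relative of DCLK1, overlapped too, at a log2 fold change of 0.01 with a standard error of 0.08. The signs for STMN4 and DCLK2 turned to -0.03 and -0.10 when arrays were centred on housekeeping genes, so these probe sets carry no direction.

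**Figure D1:**
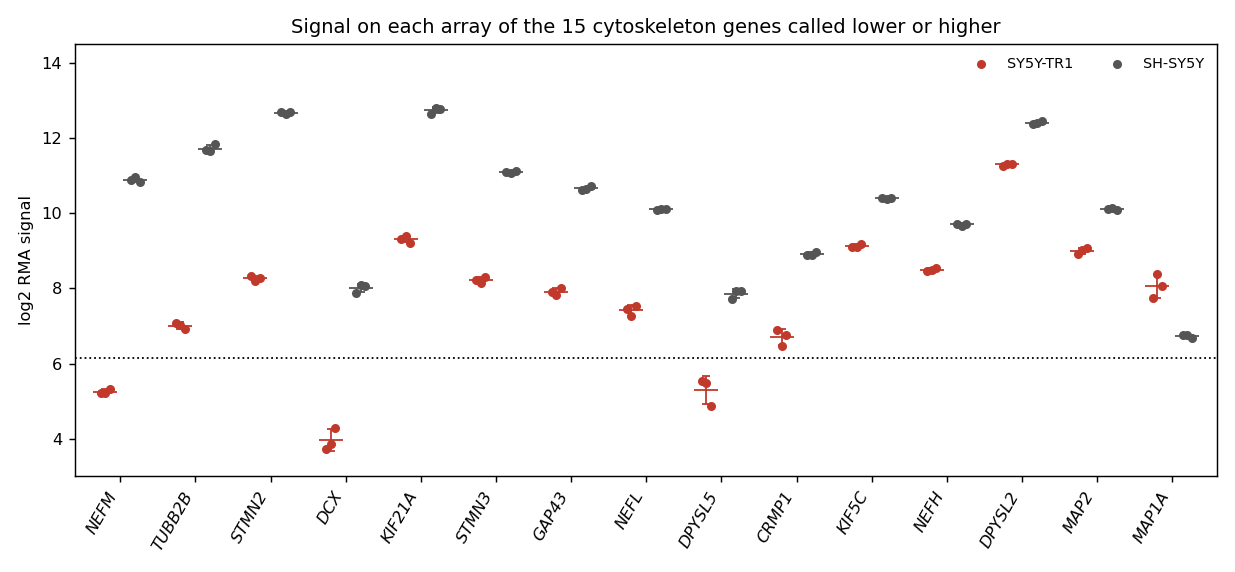
Log2 RMA signal (y axis) of the 15 cytoskeleton genes called lower or higher, ordered by log2 fold change; points are the 3 arrays of SY5Y-TR1 (red, left) and of SH-SY5Y (grey, right), with mean and SD as lines and background (6.15) dotted. No called gene overlaps between the lines, as such calls nearly require. NEFM, DCX and DPYSL5 lie under the background level in SY5Y-TR1, and MAP1A alone is higher in SY5Y-TR1.

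Structural MAPs went in both directions. MAP2, a MAP of dendrites, read 8.91, 9.02 and 9.07 in SY5Y-TR1 against 10.11, 10.14 and 10.08 in SH-SY5Y, a 2.16-fold decrease (log2 fold change -1.11 with a standard error of 0.05, limma adjusted p = 2.82e-06). The dimmer MAP2 probe set, at -0.95, stayed just under the 2-fold limit. MAP1A, which stabilizes microtubules in mature neurons, read 7.75, 8.38 and 8.06 in SY5Y-TR1 against 6.77, 6.76 and 6.69 in SH-SY5Y. It was 2.5-fold higher (log2 fold change 1.32 with a standard error of 0.15, limma adjusted p = 0.000205), the only one of the 34 genes to rise past the limit. Its SD of 0.32 in SY5Y-TR1 against 0.04 in SH-SY5Y was among the widest of the 34 genes, and the log2 fold change ran from 1.17 to 1.48 with each array left out in turn. Both other MAP1A probe sets lay at the background level in the 2 lines, and their average with the brightest did not pass (0.41 on the log2 scale). MAP1B, its embryonic relative, had log2 fold changes of 0.39, 0.67 and 0.57 with its 3 probe sets, each with an adjusted p under 0.05 and none at 2-fold. MAP6, which protects microtubules against cold, had 3 probe sets between 0.41 and 0.87 and 1 at -0.02 under the background level. MAPT, which encodes the axonal protein tau, was represented by a probe set that differed by -0.66 on the log2 scale (limma adjusted p = 0.00563), and none of its 6 probe sets was called. Of these 5 genes, MAP1A, MAP1B and MAP6 thus had non-overlapping lines with SY5Y-TR1 higher, as 32.6% of all genes did.

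Over 55 other measured MAPs and microtubule regulators, 9 were lower and 3 higher, with a median log2 fold change of -0.13, against 5 lower and 2 higher with probe sets averaged per gene. MTUS1, whose product binds microtubules, was at least 6.77-fold lower but at -0.12 on the log2 scale without probe sets marked for shared sequence, GAS2L3, a linker of actin and microtubules, was 8.43-fold lower, and MID1, a microtubule-bound ubiquitin ligase, 6.07-fold lower. In the other direction NAV3 and NAV1, neuron navigator genes whose products sit at microtubule ends, were 9.73-fold and 2.32-fold higher. With probe sets averaged they were at 1.46 and 0.96 on the log2 scale, NAV1 then not called. TPPP3, a tubulin polymerization-promoting gene, was 2.01-fold higher. The TPPP3 value dropped under the limit with arrays centred on housekeeping genes (0.9 on the log2 scale). It also did so without SY5Y-TR1 replicate 1 (0.98) or SH-SY5Y replicate 2 (0.99).

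Only 1 of the 5 neuronal tubulin genes fell past the limit. TUBB2B, a beta-tubulin that is abundant in the developing brain, read 7.09, 7.02 and 6.92 in SY5Y-TR1 against 11.68, 11.65 and 11.83 in SH-SY5Y. It was 26.2-fold lower (log2 fold change -4.71 with a standard error of 0.07, limma adjusted p = 2.01e-08). TUBB2A, its neighbour on the chromosome and its closest relative in sequence, read 13.01, 12.95 and 12.89 in SY5Y-TR1 against 12.37, 12.35 and 12.40 in SH-SY5Y, with every resistant array above every parental one. That difference of 1.49-fold (log2 fold change 0.58 with a standard error of 0.05, limma adjusted p = 3.96e-05) stayed under the 2-fold limit. TUBB3, the beta-tubulin that is most used as a neuronal marker, read 12.88, 12.79 and 12.85 in SY5Y-TR1 against 13.04, 13.04 and 13.02 in SH-SY5Y, a 1.14-fold lower signal (log2 fold change -0.19, limma adjusted p = 0.00718). TUBA1A, the main alpha-tubulin of developing neurons, read 14.03, 14.02 and 14.00 in SY5Y-TR1 against 14.19, 14.20 and 14.29 in SH-SY5Y (log2 fold change -0.21), close to the highest value on any array, 14.74. TUBB4A, a brain beta-tubulin, lay at the background level throughout. Tubulin genes are closely similar in their coding sequence, and the only TUBB2B probe set and both TUBB3 probe sets carry the suffix that marks possible cross-hybridization. The only TUBA1A probe set is likewise marked for shared sequence. Signal from relatives may thus be included in the values of TUBB2B, TUBB3 and TUBA1A. A probe set annotated to both TUBB2A and TUBB2B was not used.

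Most of the other tubulin genes were similarly close between the lines. Over all 18 tubulin genes measured, 2 were lower, 1 higher, 4 at the background level in both lines and 11 above it without a call, with log2 fold changes from -0.34 to 0.61. The brightest probe sets of TUBA1B, TUBA1C, TUBB and TUBB4B also carry the suffix for possible cross-hybridization. Their line means lay between 13.09 and 14.46, near the top of the scale. Signal from relatives may thus be included in these values, which are not separate measures of each gene. TUBA4A, an alpha-tubulin, was 3.44-fold higher (log2 fold change 1.78), and TUBD1, which encodes the centriolar delta-tubulin, was 2.59-fold lower (-1.37) with all 3 probe sets.

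**Figure D2:**
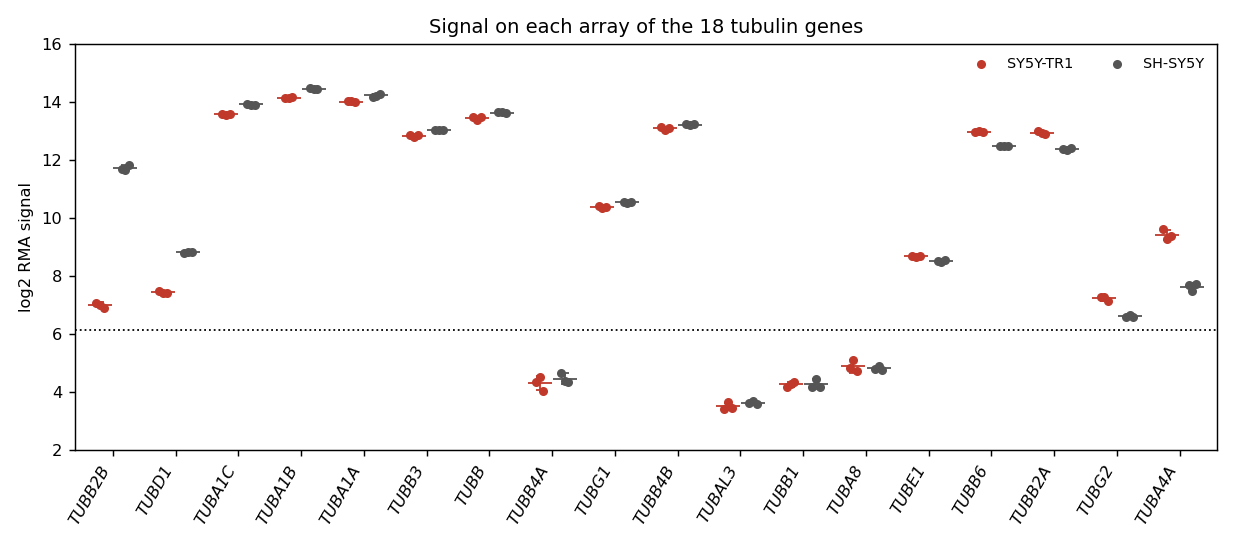
Log2 RMA signal (y axis) of 18 tubulin genes, ordered by log2 fold change; points are the 3 arrays of SY5Y-TR1 (red, left) and of SH-SY5Y (grey, right), with mean and SD as lines and background (6.15) dotted. TUBB2B averages 7.01 on the SY5Y-TR1 arrays and 11.72 on the SH-SY5Y arrays, whereas TUBB2A, TUBB3 and TUBA1A lie close together in the lines.

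CRMP genes and GAP43 had lower signals throughout, with all 6 below the parental arrays on every resistant array, as 27.2% of all genes were, and 4 called lower, as 5.99% of all genes were. GAP43, a membrane phosphoprotein of growth cones, read 7.91, 7.82 and 8.0 in SY5Y-TR1 against 10.61, 10.65 and 10.71 in SH-SY5Y. It was 6.72-fold lower (log2 fold change -2.75 with a standard error of 0.06, limma adjusted p = 7.67e-08), and its other probe sets were called as well, at least 2.05-fold and at least 1.34-fold lower with SY5Y-TR1 under background. DPYSL5, a CRMP of developing neurons, read 5.54, 5.47 and 4.87 in SY5Y-TR1 against 7.73, 7.92 and 7.94 in SH-SY5Y. With the resistant arrays under the background level it was at least 3.29-fold lower (log2 difference -2.57, limma adjusted p = 1.61e-05), and its SD of 0.37 in SY5Y-TR1 was the widest of the 34 genes. The other DPYSL5 probe set was under background on all 6 arrays and carried no fold. CRMP1, which mediates the response to semaphorins, read 6.90, 6.48 and 6.75 in SY5Y-TR1 against 8.88, 8.88 and 8.97 in SH-SY5Y, a 4.59-fold decrease (limma adjusted p = 2.48e-06). DPYSL2, whose product binds tubulin dimers and promotes axon formation, read 11.26, 11.31 and 11.32 in SY5Y-TR1 against 12.37, 12.41 and 12.44 in SH-SY5Y. That was a 2.16-fold decrease (log2 fold change -1.11, limma adjusted p = 8.71e-07), so the gene kept a high signal in both lines. DPYSL3 and DPYSL4, further CRMPs, had log2 fold changes of -0.82 and -0.64, under the limit, and their other probe sets lay between -0.27 and 0.04.

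Among 31 measured axonal kinases and genes of the membrane cytoskeleton, 5 were lower and 1 higher, with a median log2 fold change of 0.07, against 2 lower and 1 higher with probe sets averaged per gene. NRCAM, an axonal adhesion molecule that ankyrins anchor, was at least 23.0-fold lower. The brain ankyrin gene ANK2 was 4.12-fold lower through 1 of 4 probe sets and the adhesion gene L1CAM 2.47-fold lower through 1 of 2, and neither passed when all its probe sets were averaged (-0.64 for ANK2 and -0.59 for L1CAM on the log2 scale). ANK3, the ankyrin of the axon initial segment, was 4.64-fold higher through 3 of 5 probe sets, and 0.77 on the log2 scale, not called, without probe sets marked for shared sequence.

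Neuronal kinesin genes divided between KIF21A and KIF5C, which fell, and the other 4, which did not pass. KIF21A, which slows microtubule growth at the cell cortex, read 9.32, 9.39 and 9.22 in SY5Y-TR1 against 12.65, 12.81 and 12.78 in SH-SY5Y. It was 10.8-fold lower (log2 fold change -3.44 with a standard error of 0.06, limma adjusted p = 4.61e-08), and the other probe set had a log2 fold change of -3.63. KIF5C, a neuronal heavy chain of conventional kinesin, read 9.11, 9.10 and 9.19 in SY5Y-TR1 against 10.40, 10.39 and 10.40 in SH-SY5Y, a 2.40-fold decrease (limma adjusted p = 5.00e-07). Its dimmer probe sets, at -0.89 and -0.51, did not pass. The latter lay at or under the background level on 4 arrays, all those of SY5Y-TR1 among them, and could not show a 2-fold fall. KIF5A, another neuronal heavy chain, had a log2 fold change of 0.34 near the background level. KIF1A, the motor of synaptic vesicle precursors, was at -0.36, and KIF3A, a subunit of the heterotrimeric kinesin of axons and cilia, at -0.14 with its other probe set at 0.13. KIF21B, the relative of KIF21A, lay at the background level on all arrays.

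Of 46 other transport motors and adaptors, 3 were lower and 2 higher, at a median log2 fold change of 0.08. KIF26A, an atypical kinesin, was at least 7.52-fold lower, NDE1, a dynein regulator, 3.55-fold lower through 1 of 5 probe sets, and KIF26B, the relative of KIF26A, 2.69-fold lower through 1 of 3. With probe sets averaged, NDE1 (-0.82 on the log2 scale) and KIF26B (-0.65) were not called, which left 1 lower gene in the list. KIFAP3, the adaptor subunit that binds KIF3A, was 2.41-fold higher, and the dynein light chain gene DYNLT3 was 2.11-fold higher, or 0.97 on the log2 scale with arrays centred on housekeeping genes. All 13 kinesins of mitosis were lower, by 2.5-fold to 9.71-fold, with KIF20A, a motor of cytokinesis, at 9.71-fold, KIF15, a spindle motor, at 5.46-fold and KIF11, which separates the spindle poles, at 4.94-fold. Their part in the values of the neuronal kinesins was not tested.

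**Figure D3:**
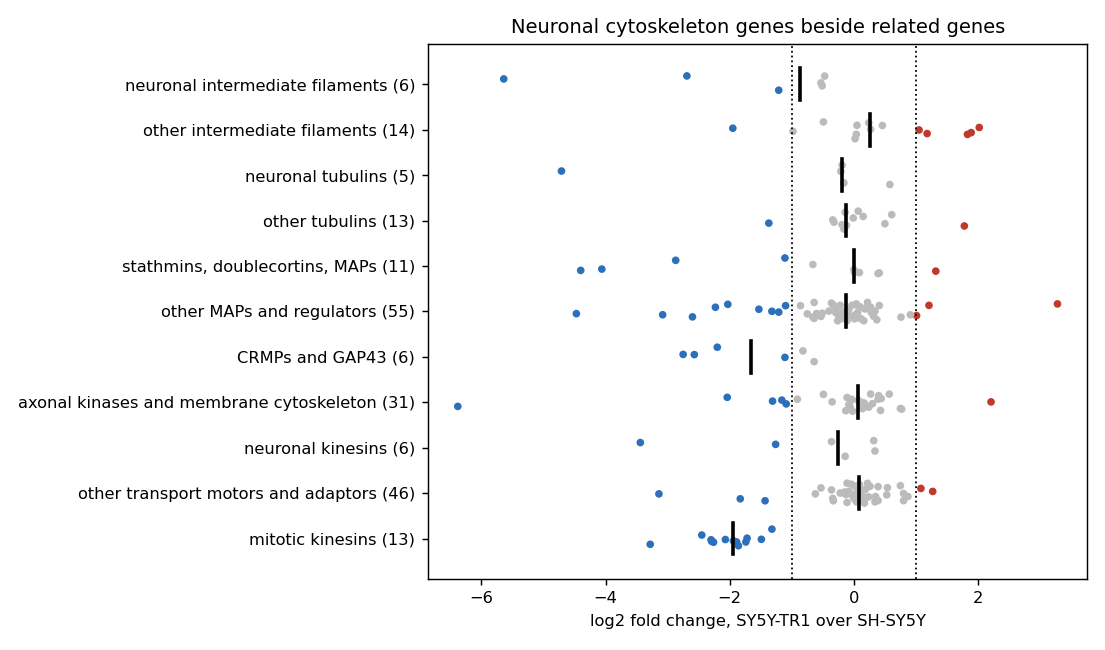
Log2 ratio of SY5Y-TR1 to SH-SY5Y (x axis) of the neuronal cytoskeleton genes by family beside lists of related genes, with the number of genes in brackets; blue points were called lower, red points higher, grey points neither, black bars are medians, dotted lines mark 2-fold, and values of genes under background in 1 line are differences of signals. The medians are -0.87 for neuronal intermediate filaments and 0.25 for other intermediate filaments, and -1.94 for mitotic kinesins.

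Over all probe sets of the 34 genes, 23 of 77 were called lower and 1 higher, where 4.58% of all probe sets were lower and 3.79% higher. Both lines were at or under the background level on 22 of the 77. Of the 14 lower genes, 9 had every probe set called lower, 3 of them with a single probe set, and no gene had one probe set called lower and another higher. With any fold at an adjusted p under 0.05 from limma, 23 of the 34 genes were lower and 6 higher, against 24.4% and 28.5% of all genes. Of the 14 lower genes, NEFL, NEFM, STMN2 and DPYSL2 lie on chromosome 8, MAP2, DPYSL5 and KIF5C on chromosome 2, and the others each on a different chromosome.

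**Figure D4:**
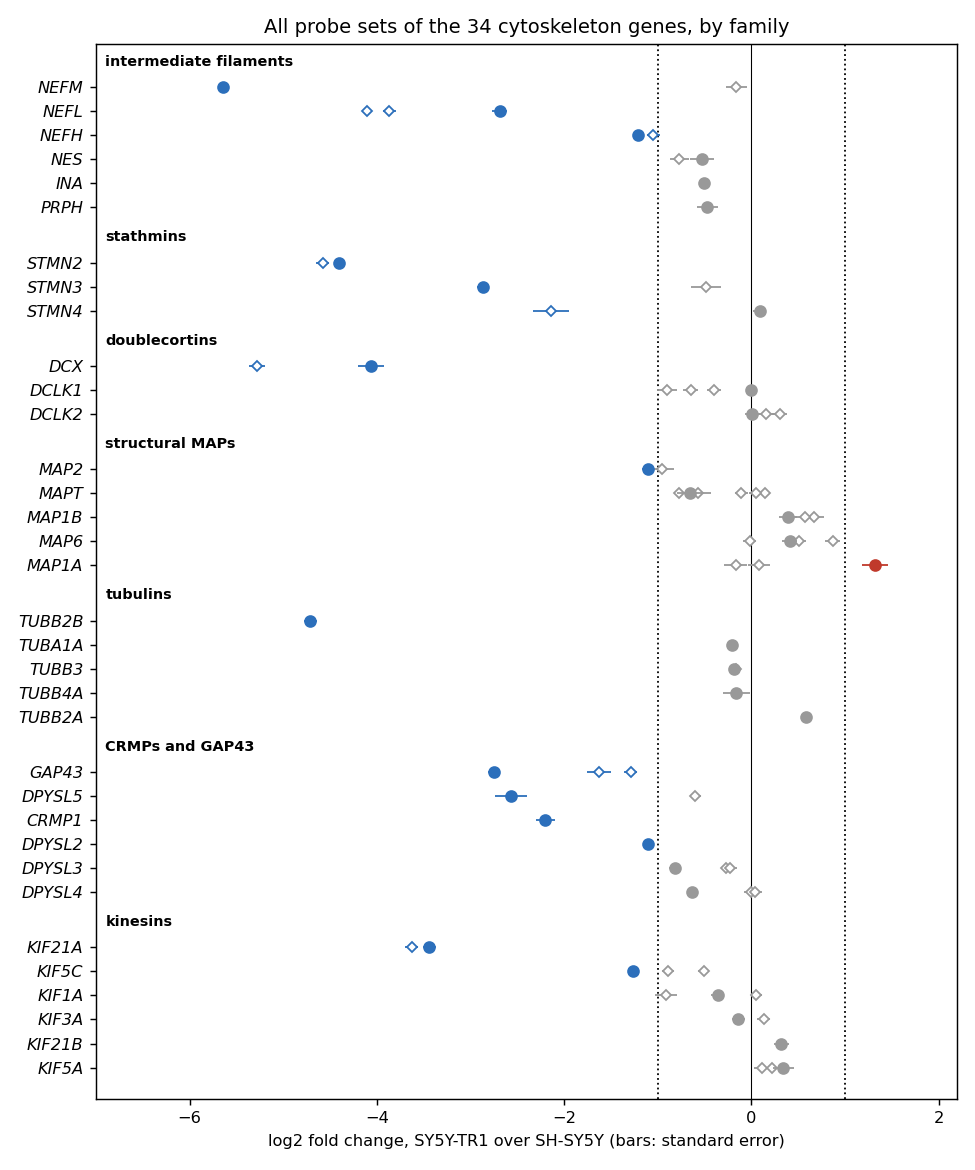
Log2 ratio of SY5Y-TR1 to SH-SY5Y (x axis) of all 77 probe sets of the 34 genes, with standard errors, by family; filled circles mark each gene's brightest probe set and open diamonds its others, in blue where called lower, red where higher and grey where neither, and dotted lines mark 2-fold. Among genes with several probe sets, differences of signals for NEFL, NEFH, STMN2, DCX, GAP43 and KIF21A all lie beyond a dotted line. Those of NEFM, STMN3, STMN4, MAP1A, MAP2, DPYSL5 and KIF5C lie on both sides of one.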

How the data were processed

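The authors deposited log2 signals from RMA in Affymetrix Expression Console, named by the submitters' processing notes (version not given in the sources used here). Background correction, quantile normalization and probe summary were thus done before deposit and could not be varied. Control probe sets (62) were dropped, and 54613 were tested. Symbols came from the platform annotation, updated through a RefSeq table (GRCh38.p14). Of the probe sets, 41091 had 1 symbol, 1801 several and 11721 none, and only the first were named. Lines were compared with limma 3.58.1 (lmFit, eBayes) in R 4.3.3 on all 6 arrays without a block. The paper gives the same limits for its heatmap and names GenePattern and Student's test only, and the methods' t-test was therefore tried as an alternative. From each related list up to 3 called genes in each direction are named, by size of change, and VIM and STMN1 are named besides. The genes, lists and limits were chosen with earlier results of these data known. Promoter windows were aligned with Biopython 1.88. The fit was tested on simulated data. Same-numbered arrays of the lines did not deviate together (r of 0 to 0.03 across genes), which gave no sign that the numbers pair them but cannot exclude it. As alternatives, results were recomputed with probe sets averaged per gene, leaving out probe sets marked for shared sequence, centring on 19 housekeeping genes, a further quantile normalization, a filter on dim probes, a floor, a replicate block, another variance model, other limits and each array left out.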

Additional observations from a re-analysis of the deposited data

How the results depend on the processing

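The count of 14 lower and 1 higher cytoskeleton genes was the same with the replicate block (14 and 1), a robust variance model that follows intensity, the methods' t-test before and after Benjamini-Hochberg, an adjusted p under 0.01, centring, quantile normalization, a filter on dim probes, a floor at the background level, and each array left out in turn, which also gave 23 to 24 lower and 1 higher probe set, and 1171 to 1205 lower and 1029 to 1081 higher of all genes. Only 1 SY5Y-TR1 array correlated best with its own number, so the values gave no sign of pairing by number. With 3 arrays per line this check cannot exclude it. Without probe sets marked for shared sequence, 28 of the 34 genes remained measured, with 11 lower and 1 higher, and 14 probe sets were lower. KIF5C then did not pass (log2 difference -0.51, with SY5Y-TR1 at or under the background level). DCX and TUBB2B, which rest on marked probe sets alone, were not measured. With the mean of all probe sets, 14 genes were lower and 0 higher. MAP1A (0.41) and KIF5C (-0.89) then did not pass, and STMN4 turned from 0.09 to -1.03 and was called lower. At a fold of 1.5, 17 genes were lower, 3 probe sets were higher, and 2161 of all genes were lower and 2169 higher. Signs near 0 turned for STMN4 (-0.03) and DCLK2 (-0.10) with centring, for DCLK1 with quantile normalization (0.01), and with an array left out for DCLK1 (-0.02 to 0.03) and DCLK2 (-0.07 to 0.09). Centring lowered every log2 fold change by 0.11. Counts of related lists moved by over 1.5 times for other intermediate filaments (5 higher, 2 without marked probe sets), other MAPs (9 lower, 5 with averaged probe sets), transport motors (3 lower, 1 averaged) and axonal kinases and membrane cytoskeleton (5 lower, 2 averaged, and 1 higher, 0 without marked probe sets). With centring, 2 other intermediate filaments were lower and 1 transport motor was higher. The causes were not tested beyond the choice of probe sets. Genes at the background level have no exact fold, and signals near the top of the scale may be compressed.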
